A study of Homo sapiens with 6 samples.

Results

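The Hippo pathway and YAP target genes were examined in SW480 cells, an established line from a human colorectal adenocarcinoma, that overexpressed either GFP or POU5F1B. The 10 genes were chosen by symbol, and all 10 were found among the 63677 identifiers of the count tables. They were CCN1 (formerly CYR61), CCN2 (formerly CTGF), ANKRD1, AMOTL2, AJUBA, YAP1, WWTR1, LATS2, TEAD1 and TEAD4. All 10 passed the filter on low counts, which kept 14286 genes.

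Cells of both groups had been transduced with a lentiviral vector whose promoter responds to doxycycline, encoding GFP in the control group and POU5F1B, a retrogene copy of the pluripotency gene POU5F1/OCT4, in the other. Both had received 1 µg/mL doxycycline for 72 h, so that no uninduced cells entered the comparison. Polyadenylated RNA was sequenced in 3 libraries per group, and the libraries held from 10767947 to 12787637 counts. The study states in general terms that its cell culture experiments were repeated independently and with technical replicates, and does not say which of these the 3 libraries of a group are. The p-values therefore measure the spread between these libraries, which may be technical.

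In the Hippo pathway, the kinases STK3 and STK4 activate LATS1 and LATS2, which phosphorylate the coactivators YAP (from YAP1) and TAZ (from WWTR1) and so keep them out of the nucleus. When the kinases are inactive, YAP and TAZ bind TEAD factors on DNA and raise target genes such as CCN1, CCN2 and ANKRD1. LATS2 and AMOTL2 are themselves targets and act back on the pathway as inhibitors. YAP is known in the intestine for its part in regeneration and in colorectal tumors. Its activity is set chiefly by phosphorylation and location, which RNA levels do not measure.

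TEAD factors recognize the core GGAATG, and upstream sequences were searched for it because it is the element through which YAP and TAZ reach their targets. RefSeq promoters (build GRCh38.p14) were found for 7 members with 10 start sites. The 250 bases before each start were read on both strands, as GGAATG or CATTCC, and no match overlapped another. Of the 7 members, 5 held the core before at least 1 start (5 of 10 start sites), whereas 11.9% of all 35116 listed start sites and 14.3% of all 27305 genes did. CCN2 held 3 copies, at -169, -104 and -95 from the start, a number reached by 0.0826% of all start sites. ANKRD1 held 2, at -220 and -128 (0.94% of all start sites held at least 2). AMOTL2, AJUBA and YAP1 held 1 copy each, and LATS2 and WWTR1 held none in this window. Promoters of CCN1, TEAD1 and TEAD4 were not analyzed here. A match describes letters and is not evidence of binding. Both upstream sequences with several copies are shown 5′ to 3′ on the gene's strand, with the core in capitals, for CCN2 at chr6:131951373-131951622 (minus strand) and for ANKRD1 at chr10:90921088-90921337 (minus strand).

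CCN2: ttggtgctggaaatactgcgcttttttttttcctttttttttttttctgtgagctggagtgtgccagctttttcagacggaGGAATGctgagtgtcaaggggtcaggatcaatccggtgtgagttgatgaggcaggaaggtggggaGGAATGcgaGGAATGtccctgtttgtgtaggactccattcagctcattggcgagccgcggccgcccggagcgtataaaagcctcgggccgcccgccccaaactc

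ANKRD1: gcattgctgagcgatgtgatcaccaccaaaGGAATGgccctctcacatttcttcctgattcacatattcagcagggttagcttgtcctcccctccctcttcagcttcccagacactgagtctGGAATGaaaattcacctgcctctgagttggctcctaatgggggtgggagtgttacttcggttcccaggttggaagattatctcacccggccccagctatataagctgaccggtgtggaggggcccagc

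**Figure D1:**
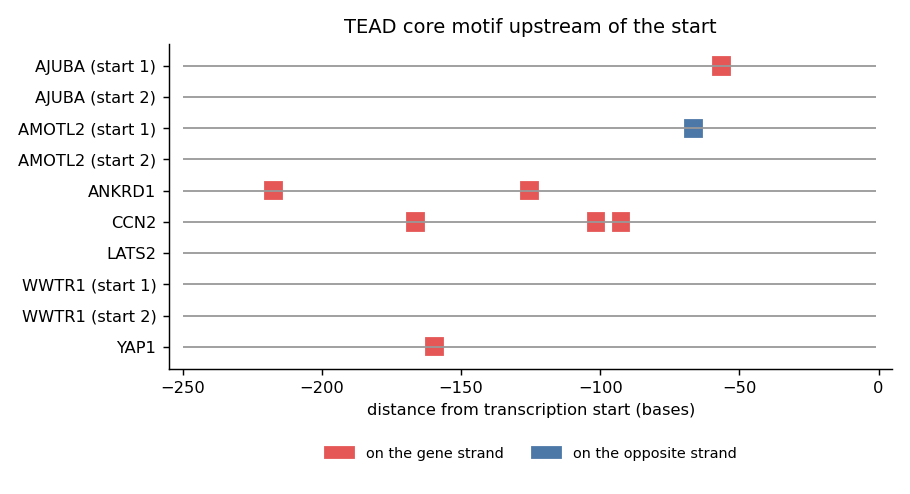
Position of the TEAD core in the 250 bases before each RefSeq start site, one line per start, with distance in bases on the horizontal axis. Red boxes mark the core on the gene's strand and blue boxes on the opposite strand. CCN2 shows 3 boxes and ANKRD1 shows 2, while LATS2 and both WWTR1 starts show none.

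Before the members were compared, the libraries were checked. POU5F1B had 6, 5 and 1 counts in GFP replicates 1, 2 and 3 and 15027, 11393 and 1458 in the POU5F1B libraries, so that it was high in each library labelled with it but lower in replicate 3. GFP replicate 3 stood apart from GFP replicates 1 and 2, with biological coefficients of variation of 44.3% and 40.9% against 8.03% between replicates 1 and 2. POU5F1B replicate 3 differed from its own replicates 1 and 2 by 21.1% and 24.1%, against 9.84% between those 2. Each member is therefore given with all 6 libraries, within replicates 1 and 2, and for each replicate number. The keratins KRT8 and KRT18 made up most of the epithelial markers, with the 8 listed genes summing to between 6365 and 9579 CPM (gene counts relative to the total count of the library, on the CPM scale of edgeR after TMM scaling), although CDX1 stayed under 5 CPM in each library. The 5 immune markers summed to at most 4.25 CPM and the 3 endothelial markers found to at most 6.53 CPM.

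With all 6 libraries, 0 of the 10 members passed the threshold, which asked for a limma voom adjusted p under 0.05, corrected over all tested genes, together with more than a 2-fold difference. This matches the background, as 0 of 14286 genes (0%) passed. POU5F1B itself was among these genes and did not pass, with a log2 fold change of 10.73 and a limma voom adjusted p of 0.252. Missing this threshold is therefore no evidence that a member was unchanged. The study, which also used voom, counted SW480 among the settings with enough upregulated genes for an annotation of terms. At an unadjusted p under 0.05 there were also 0 members, against 1698 genes of all tested, and edgeR and DESeq2 likewise passed 0 members. The groups overlapped for each of the 10 members, whereas they did not overlap for 19.4% of all tested genes. The median log2 fold change (POU5F1B over GFP) was 0.10 over the members and -0.02 over all tested genes.

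Among the 10 members, CCN2 (ENSG00000118523; GRCh37 chromosome 6, 132269316 to 132272512, minus strand) showed the widest log2 fold change in both comparisons. It is a direct target of YAP and encodes a matricellular protein of connective tissue. Its counts were 501, 584 and 163 in GFP replicates 1, 2 and 3, which corresponded to 42.2, 44.5 and 14.2 CPM, and 135, 124 and 273 counts in the POU5F1B replicates, which corresponded to 10.6, 11.5 and 22.7 CPM. GFP replicates 1 and 2 were thus high, and GFP replicate 3 lay among the POU5F1B libraries. GFP cells averaged 33.6 ± 16.9 CPM against 14.9 ± 6.75 CPM with POU5F1B (SD, n = 3). With all libraries the log2 fold change of -1.10 ± 0.54 (SE; 95% interval -2.38 to 0.18) did not pass (limma voom adjusted p = 0.475).

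Within replicates 1 and 2, CCN2 fell with POU5F1B, by 3.96 times (log2 difference of -1.98 ± 0.15 SE and limma voom adjusted p of 1.68e-06). It was the only member of 10 to pass there, where 8.36% of all tested genes passed and 5.15% did so in the lower direction. The difference was -1.97 in replicate 1 and -1.94 in replicate 2 on the log2 scale, but 0.67 in replicate 3, which is the opposite direction. Without GFP replicate 3 alone, CCN2 also passed (-1.63, limma voom adjusted p = 0.0133), whereas without POU5F1B replicate 3 alone it did not (-1.44, limma voom adjusted p = 0.449).

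A set of stromal markers was, like CCN2, highest in GFP replicates 1 and 2, but their sum did not cross over in replicate 3. The 6 listed genes summed to 171, 148 and 27.4 CPM in GFP replicates 1, 2 and 3 and to 15.5, 13.4 and 22.6 CPM in the POU5F1B replicates. Most of this came from COL1A1 and PDGFRB. COL1A1, a fibrillar collagen chain, had 142, 118 and 16.9 CPM in the GFP and 6.76, 5.56 and 9.49 CPM in the POU5F1B libraries. It stayed lower with POU5F1B in replicate 3, whereas PDGFRB crossed over there (7.22 CPM with GFP against 12.5 CPM with POU5F1B). COL3A1 had 0 counts in each library, and COL1A2, DCN and LUM, which define fibroblasts, stayed under 5 CPM in each. Epithelial markers differed between these libraries as well. Of the 8 listed, 7 were tested, and 3 passed within replicates 1 and 2 (limma voom), all higher with POU5F1B, against 8.36% of all tested genes. CDX2 went the other way there (log2 difference of -0.58, limma voom adjusted p = 0.0333). It had 27.7, 19.5 and 33.2 CPM in the GFP and 16.4, 14.6 and 37 CPM in the POU5F1B libraries. EPCAM, an adhesion protein of epithelial cells, had 86.8, 89.4 and 519 CPM in the GFP and 320, 331 and 252 CPM in the POU5F1B libraries, so that like CCN2 it crossed over in replicate 3. E-cadherin (CDH1) had 33.7, 30.2 and 72.7 CPM with GFP against 164, 159 and 98.3 CPM with POU5F1B. VIL1, the brush border protein villin, had 23.1, 14 and 211 CPM with GFP against 42.7, 37.6 and 111 CPM with POU5F1B. GFP replicate 3 thus lay above GFP replicates 1 and 2 for each of these 3 genes. The part of the stromal and epithelial genes in the CCN2 result was not tested. In bulk RNA, fewer cells of a type and less RNA per cell cannot be told apart.

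CCN1 (ENSG00000142871; chromosome 1, 86046444 to 86050272, plus strand), which encodes a matricellular protein related to that of CCN2, did not share this pattern. It had 481, 530 and 196 CPM in GFP replicates 1, 2 and 3 and 489, 485 and 252 CPM in POU5F1B replicates 1, 2 and 3. Both replicate 3 libraries were low, and the remaining 4 lay close together in both groups. The log2 fold change was 0.08 ± 0.43 (SE; interval -0.95 to 1.11) with all libraries. Within replicates 1 and 2 it was -0.07, with an interval of -0.22 to 0.09 that did not reach the difference of CCN2 there. That narrower interval measures only the spread between 2 libraries per group.

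ANKRD1 (ENSG00000148677; chromosome 10, 92671853 to 92680844, minus strand) encodes an ankyrin repeat protein of the nucleus and sarcomere and is widely used as a readout of YAP. Its levels were 327, 369 and 293 CPM in the GFP libraries and 382, 379 and 223 CPM in the POU5F1B libraries, with POU5F1B replicate 3 lowest of all 6. The log2 fold change was -0.05 ± 0.23 (SE; interval -0.58 to 0.49) with all libraries and 0.12 (interval -0.05 to 0.29) within replicates 1 and 2. Thus of the 3 targets most used as readouts, CCN2 passed within replicates 1 and 2 and the other two had intervals there that stayed within 0.29 of 0 on the log2 scale.

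**Figure D2:**
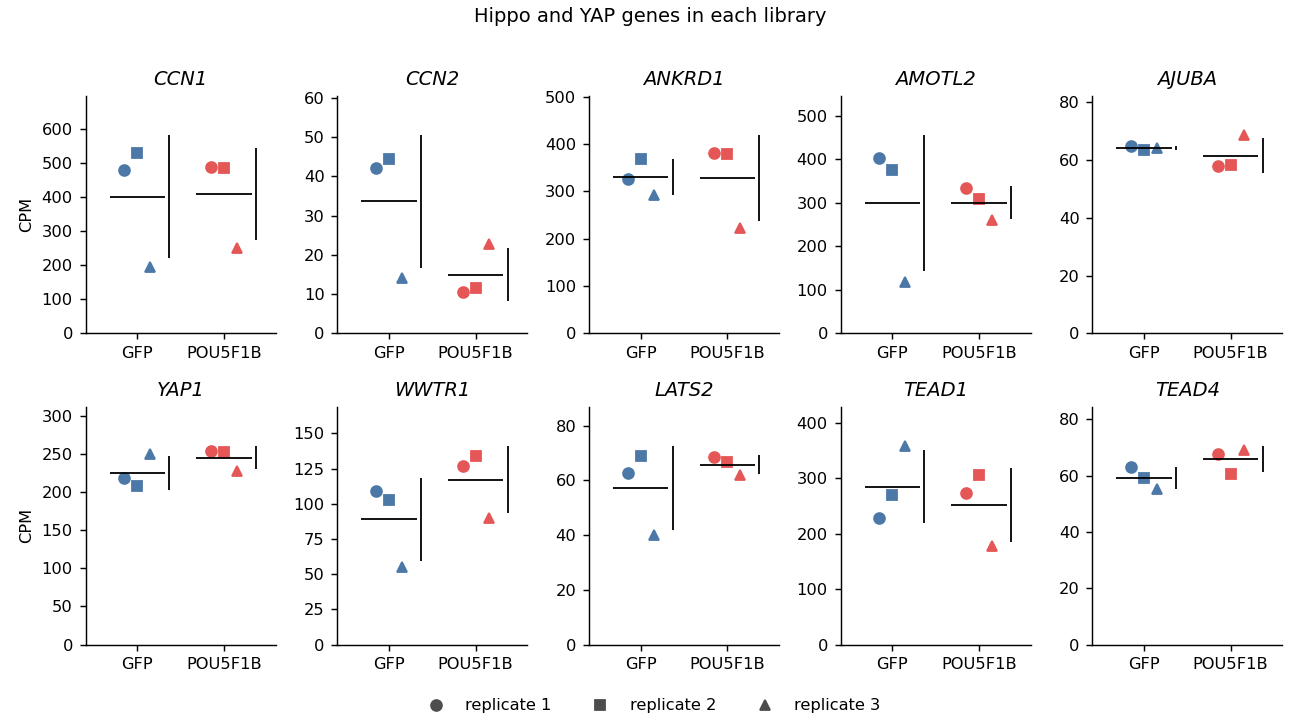
Level of each member in CPM (vertical axes, from 0) in GFP (blue) and POU5F1B (red) libraries, with the replicate number given by the marker shape, the mean by a horizontal line and the SD by the vertical line (n = 3). CCN2 replicates 1 and 2 sit at 42.2 and 44.5 CPM with GFP and at 10.6 and 11.5 CPM with POU5F1B, while the replicate 3 libraries cross over.

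The members that are targets and also act as inhibitors were described next, followed by AJUBA. AMOTL2 (ENSG00000114019; chromosome 3, 134074189 to 134094321, minus strand) encodes an angiomotin family protein that binds YAP and holds it at junctions. It had 402, 376 and 119 CPM in the GFP libraries and 334, 308 and 260 CPM in the POU5F1B libraries. GFP replicate 3 was thus the lowest and its fellow replicates the highest. The log2 fold change was 0.18 ± 0.45 (SE) with all libraries and -0.29 ± 0.08 (SE) within replicates 1 and 2, where it had a limma voom adjusted p of 0.0146 but a fold change under 2. Its exons share 187 bases with the pseudogene RPL39P5 on the same strand, which had 4 to 9 counts per library. In replicate 3 the AMOTL2 difference was 1.12, the widest of the members there in the upward direction.

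LATS2 (ENSG00000150457; chromosome 13, 21547175 to 21635725, minus strand), the kinase that phosphorylates YAP and TAZ, had 62.5, 69.0 and 40.0 CPM with GFP and 68.7, 66.6 and 61.9 CPM with POU5F1B. Apart from GFP replicate 3, its levels lay within a narrow range. Its log2 fold change was 0.23 ± 0.21 (SE) with all libraries and 0.03 (interval -0.19 to 0.25) within replicates 1 and 2. AJUBA (ENSG00000129474; chromosome 14, 23440386 to 23451760, minus strand), a LIM domain protein that restrains LATS kinases, had the lowest SD of log2 CPM over the 6 libraries (0.10). Its levels were 64.7, 63.4 and 64.2 CPM with GFP and 57.8, 58.2 and 68.6 CPM with POU5F1B, a log2 fold change of -0.06 ± 0.12 (SE; interval -0.35 to 0.22).

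Of the coactivators, YAP1 (ENSG00000137693; chromosome 11, 101981178 to 102104155, plus strand) had 219, 208 and 251 CPM in the GFP libraries and 255, 253 and 228 CPM in the POU5F1B libraries. It was a little higher with POU5F1B in replicates 1 and 2 (log2 difference of 0.24 ± 0.08 SE, limma voom adjusted p = 0.0355), short of the 2-fold limit, while the difference in replicate 3 was -0.14. WWTR1 (ENSG00000018408; chromosome 3, 149235022 to 149454501, minus strand) had 109, 103 and 54.9 CPM with GFP against 127, 134 and 89.7 CPM with POU5F1B. It was higher with POU5F1B within each replicate number, by 0.21, 0.38 and 0.71 on the log2 scale, although the groups overlapped. Its log2 fold change was 0.43 ± 0.29 (SE; interval -0.27 to 1.12; limma voom adjusted p = 0.602) with all libraries and 0.28 ± 0.09 (SE; limma voom adjusted p = 0.0289) within replicates 1 and 2. Exons of WWTR1 share 756 bases with the antisense gene WWTR1-AS1, which had 2 to 4 counts per library. The strand setting of the counting was not stated, so reads of the shared bases cannot be assigned with certainty.

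Of the DNA-binding partners, TEAD1 (ENSG00000187079; chromosome 11, 12695968 to 12966284, plus strand) had 228, 269 and 357 CPM with GFP and 273, 306 and 177 CPM with POU5F1B. The replicate 3 libraries were the extremes of the 6, the GFP one highest and the POU5F1B one lowest, so that its difference was 0.26 and 0.19 in replicates 1 and 2 but -1.01 in replicate 3. TEAD4 (ENSG00000197905; chromosome 12, 3068496 to 3149842, plus strand) had 63.0, 59.2 and 55.3 CPM with GFP and 67.7, 60.7 and 69.2 CPM with POU5F1B. It was the other member with the same sign in each replicate number (0.10, 0.04 and 0.32), and its log2 fold change was 0.16 ± 0.12 (SE; interval -0.13 to 0.44; limma voom adjusted p = 0.645).

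**Figure D3:**
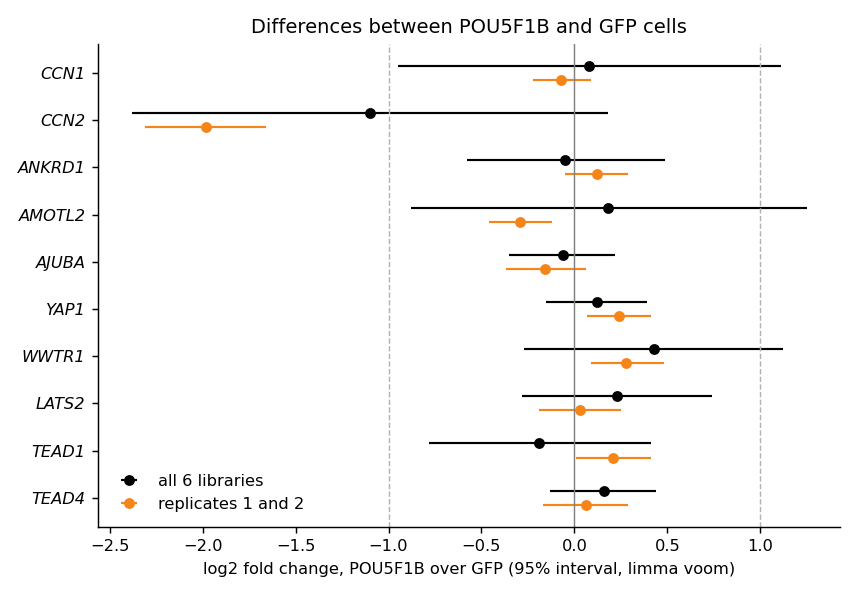
Log2 fold change of each member (horizontal axis) with its 95% interval from limma voom, for all 6 libraries (black) and for replicates 1 and 2 (orange), with dashed lines at a 2-fold change. The CCN2 interval for replicates 1 and 2 runs from -2.31 to -1.66, while each interval from all 6 libraries spans 0.

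Considering the members by replicate number, 4 of 10 had an adjusted p under 0.05 within replicates 1 and 2 when no fold limit was set (CCN2, AMOTL2, YAP1 and WWTR1), where 29.7% of all tested genes did. The difference had the same sign in replicates 1 and 2 for 8 of 10 members. Of these, 2 (WWTR1 and TEAD4) kept the sign in replicate 3 and 6 had the opposite sign. The shares over all tested genes were 36.7% with 1 sign throughout and 41.5% that turned in replicate 3, and with 10 members these shares are given as a description. GFP replicate 3 differed from the mean of GFP replicates 1 and 2 by -1.36 for CCN1, -1.60 for CCN2 and -1.70 for AMOTL2 on the log2 scale. The other members differed by less than 2-fold, from -0.94 for WWTR1 to 0.53 for TEAD1, with 0.00 for AJUBA. Over all tested genes 21.9% differed by more than 2-fold in either direction.

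**Figure D4:**
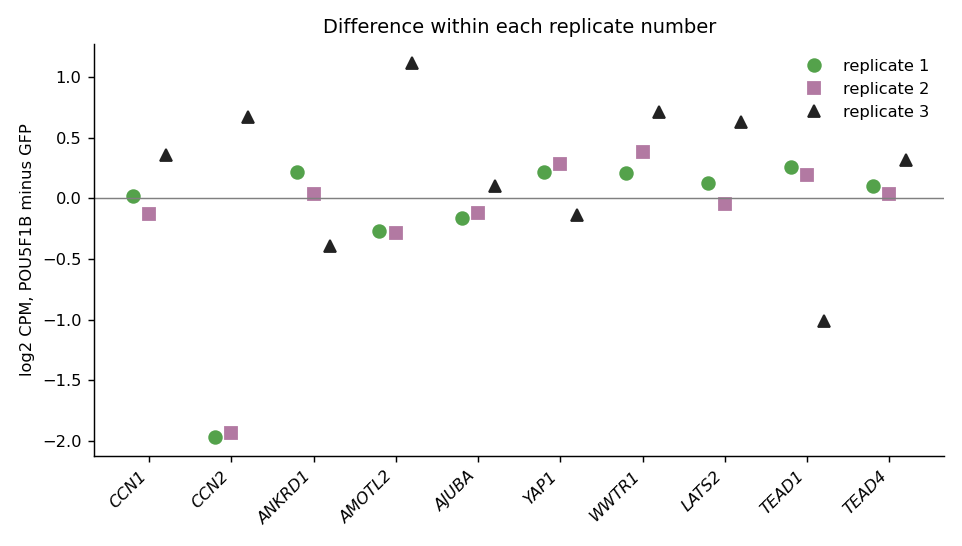
Difference in log2 CPM between the POU5F1B and the GFP library of the same replicate number (vertical axis) for each member. CCN2 lies at -1.97 and -1.94 in replicates 1 and 2 and at 0.67 in replicate 3, and AMOTL2 and TEAD1 in replicate 3 lie at 1.12 and -1.01.

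To compare levels between genes, CPM was divided by the exon length of each gene in kilobases. On this scale ANKRD1 was the most abundant member in GFP cells (184 ± 21.3 CPM per kb; SD, n = 3), followed by CCN1 (109 ± 48.8), AMOTL2 (46.2 ± 24.1) and YAP1 (35.9 ± 3.55). TEAD1 (26.6 ± 6.20) and TEAD4 (26.0 ± 1.69) had nearly equal mean levels. CCN2 (14.4 ± 7.22), AJUBA (10.9 ± 0.113), WWTR1 (10.6 ± 3.55) and LATS2 (10.2 ± 2.71) were the lowest, and neighbours among these 4 overlapped. In GFP cells only ANKRD1 against CCN1 and TEAD4 against CCN2 were neighbours whose libraries did not overlap. In POU5F1B cells the order was the same for the first 4 genes, led by ANKRD1 (183 ± 50.7) and CCN1 (111 ± 36.6), and CCN2 was last (6.39 ± 2.89), below AJUBA (10.5 ± 1.04) without overlap. Libraries of ANKRD1 and CCN1 overlapped there. The mRNA of YAP1 was higher than that of its paralog WWTR1 in both groups, at 38.9 ± 2.37 against 14 ± 2.83 CPM per kb in POU5F1B cells.

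The rest of the pathway was described from 6 lists that together held 82 genes, the members included, of which 73 were tested. With all 6 libraries 0 of the 73 passed with limma voom, 11 had an unadjusted p under 0.05, and 12 did not overlap between groups (7 higher and 5 lower with POU5F1B, against the 19.4% of all tested genes given above). The median log2 fold change was 0.01. Within replicates 1 and 2, 7 passed, 1 higher and 6 lower, and 4 of the 7 had the same sign in replicate 3. Over all tested genes 1194 (8.36%) passed, and 639 of these had the same sign in replicate 3.

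Upstream of YAP, the 15 core kinases and scaffolds had a median log2 fold change of -0.05. Within replicates 1 and 2, 1 of them passed, FRMD6, against 8.36% of all tested genes. With no fold limit, 5 of the 15 had a limma voom adjusted p under 0.05 there, against 29.7% of all tested genes. FRMD6 was lower with POU5F1B, while STK3, MOB1A, NF2 and WWC1, named after their values were seen, were higher. LATS1, the paralog of LATS2, had 21.7, 25.0 and 42.5 CPM with GFP and 24.5, 24.4 and 23.0 CPM with POU5F1B. FRMD6, a FERM domain protein that acts upstream of the Hippo kinases, had 155, 148 and 43.0 CPM with GFP against 26.1, 26.0 and 26.2 CPM with POU5F1B. Its POU5F1B libraries were nearly equal and lay below each GFP library. The rule for naming list genes took only genes whose groups do not overlap, so that this separation follows from the choice. The log2 fold change was -1.94 ± 0.57 (SE; limma voom adjusted p = 0.294) with all libraries and -2.55 ± 0.11 (SE; limma voom adjusted p = 1.24e-08) within replicates 1 and 2, where FRMD6 fell. Without GFP replicate 3 it also passed (-2.55; limma voom adjusted p = 0.000107). DESeq2 called FRMD6 with all 6 libraries (-2.15, adjusted p = 0.000533) and edgeR did not (-2.15, adjusted p = 0.2).

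The widest difference in the lists was that of AMOTL1, an angiomotin family member like AMOTL2 that binds YAP and TAZ. It had 1340, 1543 and 462 counts (113, 118 and 40.2 CPM) in the GFP libraries and 22, 28 and 53 counts (1.73, 2.60 and 4.41 CPM) in the POU5F1B libraries. The groups did not overlap, which the rule for naming it required. The difference was -5.90, -5.41 and -3.14 on the log2 scale in replicates 1, 2 and 3. With all libraries the log2 fold change was -4.90 ± 0.75 (SE), 29.8 times lower, with a limma voom adjusted p of 0.185. Within replicates 1 and 2 AMOTL1 fell (-5.77 ± 0.25 SE; limma voom adjusted p = 1.31e-08), as it did without GFP replicate 3 (-5.41; limma voom adjusted p = 0.000236). DESeq2 called it with all 6 libraries (-4.96, adjusted p = 5e-19), whereas edgeR did not (-4.95, adjusted p = 0.106). The third angiomotin gene, AMOT, was scarce and ran the other way, with 4.13, 3.66 and 1.22 CPM with GFP against 8.34, 7.23 and 4.25 CPM with POU5F1B (log2 difference of 1.24 ± 0.50 SE, limma voom adjusted p = 0.403). Thus among the 3 angiomotin genes AMOTL1 was lower and AMOT higher with POU5F1B in each replicate number, and AMOTL2 differed in sign between them. For AMOTL1 and AMOT a shared sign was fixed by the rule for naming them.

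Among the other adaptors, which numbered 17 with the angiomotins and had a median of 0.03, none but AMOTL1 passed within replicates 1 and 2 (limma voom), where 8.36% of all tested genes did. AJUBA, which restrains LATS kinases, was among the 17, so this list did not hold inhibitors of YAP alone. With no fold limit, 11 of the 17 had a limma voom adjusted p under 0.05 within replicates 1 and 2, against 29.7% of all tested genes. They went both ways. AMOT, YWHAH, YWHAQ, YWHAZ and SFN were higher with POU5F1B, and AMOTL1, AMOTL2, WTIP, CSNK1D, CSNK1E and YWHAG were lower. Of these, YWHAH, YWHAZ, SFN, WTIP, CSNK1D and CSNK1E were named after their values were seen. YWHAG and YWHAQ encode 14-3-3 proteins, which retain phosphorylated YAP in the cytoplasm. YWHAG had 800, 740 and 628 CPM with GFP against 543, 526 and 614 CPM with POU5F1B (log2 fold change -0.36 ± 0.13 SE). YWHAQ had 555, 566 and 719 CPM with GFP against 752, 823 and 725 CPM with POU5F1B (0.33 ± 0.13 SE). Replicate 3 differed by -0.03 and 0.01 for these genes, so that what separated the groups came from replicates 1 and 2.

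The list of 22 YAP and TAZ targets, 21 of them tested, had a median of 0.08, with 11 of them higher, and within replicates 1 and 2 a median of 0.03. There 4 of the 21 passed, 1 higher and 3 lower, against 8.36% of all tested genes (5.15% lower). TGFB2, a ligand of the TGF-beta family, had 64.5, 59.7 and 27.3 CPM with GFP against 7.16, 6.67 and 7.83 CPM with POU5F1B. Each POU5F1B library lay below each GFP library, a separation that the rule for naming it required. The differences were -3.14, -3.13 and -1.78 on the log2 scale within the replicate numbers. Its log2 fold change was -2.71 ± 0.43 (SE; limma voom adjusted p = 0.185) with all libraries. Within replicates 1 and 2 it fell (-3.17; limma voom adjusted p = 7.73e-08), as it did without GFP replicate 3 (-3.11; limma voom adjusted p = 0.000226). DESeq2 called it with all libraries (-2.81, adjusted p = 7.59e-11) and edgeR did not (-2.80, adjusted p = 0.107).

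The 1 target that was past the 2-fold limit in the higher direction within replicates 1 and 2 was F3, which encodes tissue factor, the initiator of coagulation. It had 22.1, 21 and 18 CPM with GFP against 46.0, 47.5 and 22.6 CPM with POU5F1B (1.10 ± 0.12 SE within replicates 1 and 2, limma voom adjusted p = 4.33e-05). CCN2 and CCDC80 also fell there, CCDC80 being named after its values were seen, with 38.2, 35.4 and 12.6 CPM with GFP against 18.6, 17.3 and 19.3 CPM with POU5F1B. Like CCN2, it had the opposite sign in replicate 3 (0.61). IGFBP3, a carrier of insulin-like growth factors, had 96.1, 94.9 and 121 CPM with GFP against 150, 131 and 146 CPM with POU5F1B, and DOCK5, an exchange factor for RAC, had 56.8, 62.0 and 60.8 CPM against 86.0, 79.3 and 63.0 CPM. Both were higher with POU5F1B without overlap, which the rule for naming them required, and neither reached 2-fold (0.46 ± 0.14 and 0.33 ± 0.15 SE). With no fold limit, 13 of the 21 targets had a limma voom adjusted p under 0.05 within replicates 1 and 2, against 29.7% of all tested genes. Those higher with POU5F1B besides F3 were IGFBP3, DOCK5, MYOF, GADD45A and NT5E, the last 3 named after their values were seen, and the widest of these differences was that of NT5E (0.94). Those lower were CCN2, TGFB2, CCDC80, AMOTL2, ASAP1 (-0.60), ARHGEF17 (-0.64) and AXL (-0.34), the last 3 also named after their values were seen.

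**Figure D5:**
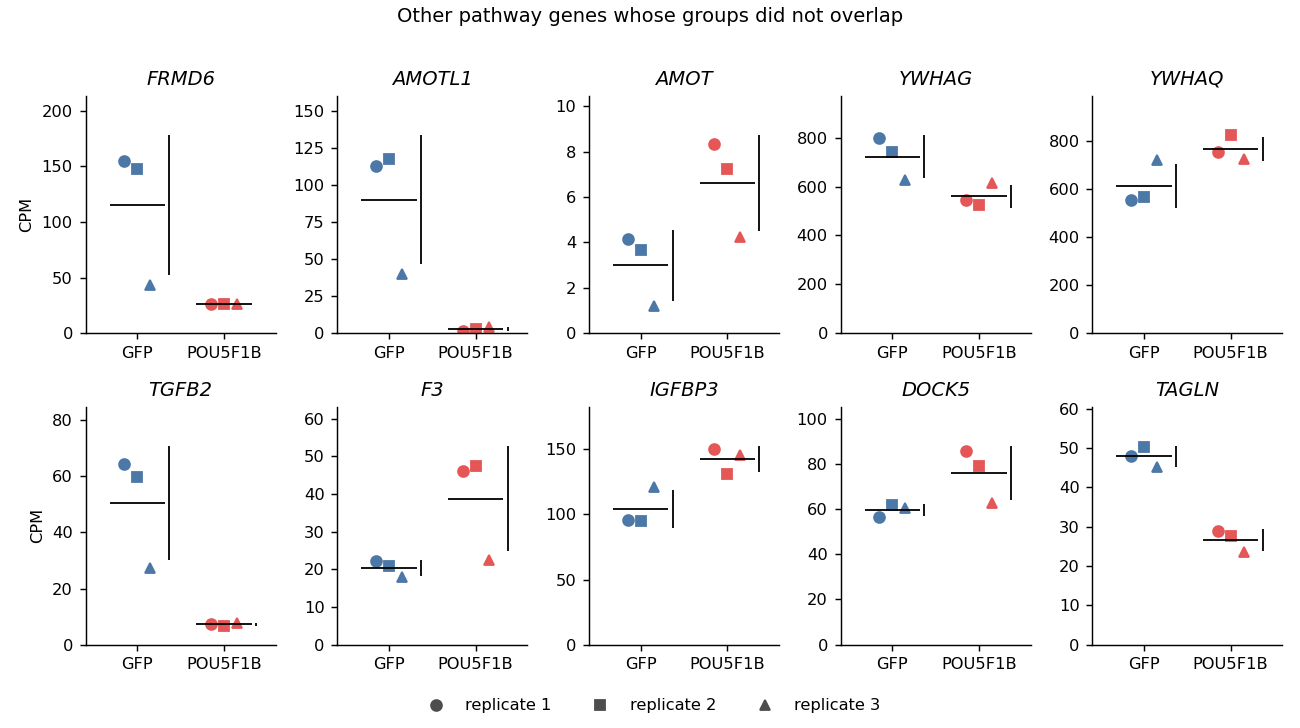
Level in CPM (vertical axes, from 0) of the 10 further pathway genes named by rule, whose GFP (blue) and POU5F1B (red) libraries do not overlap. Marker shapes give the replicate number, horizontal lines the mean and vertical lines the SD (n = 3). AMOTL1 lies at 40.2 CPM or above with GFP and at 4.41 CPM or below with POU5F1B.

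CCN1, CCN2 and ANKRD1 are also targets of SRF and its MRTF coactivators, which respond to actin. Of 20 genes on that list 18 were tested, with a median of -0.03 with all libraries and -0.15 within replicates 1 and 2. There 2 passed, against 8.36% of all tested genes (5.15% lower). Both were lower, namely CCN2 and TPM2 (a tropomyosin, named after its values were seen). In replicate 3, 0 of these had the same sign. With no fold limit, 9 of the 18 had a limma voom adjusted p under 0.05 within replicates 1 and 2, against 29.7% of all tested genes. VCL, FHL2 and EGR1 were higher with POU5F1B, and CCN2, TPM2, TAGLN, CNN2, MYL9 and FLNA were lower. Of these, VCL, FHL2, EGR1, CNN2, MYL9 and FLNA were also named after their values were seen. TAGLN, an actin-binding protein of smooth muscle, was the 1 gene of the list whose groups did not overlap, against 19.4% of all tested genes. It had 48.0, 50.3 and 45.2 CPM with GFP against 28.9, 27.5 and 23.5 CPM with POU5F1B (log2 difference of -0.85 ± 0.14 SE, limma voom adjusted p = 0.185). Its difference of -0.94 in replicate 3 was as wide as those of -0.73 and -0.87 in replicates 1 and 2.

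Of the 6 CCN genes, CCN1 and CCN2 carried nearly all counts. CCN6 was tested with 10 to 34 counts per library, CCN3 had 2 to 13 counts and CCN4 0 to 5, and CCN5 had 0 counts in each of the 6 libraries, where 3 counts correspond to at most 0.279 CPM. Among the TEAD family, TEAD2 had 65.4, 63.4 and 29.1 CPM with GFP against 42.3, 38.3 and 34.5 CPM with POU5F1B, and TEAD3 had between 13.7 and 29.8 CPM. VGLL4, a TEAD cofactor that competes with YAP, had between 33.3 and 47.9 CPM. VGLL1 and VGLL2 had 0 counts in each library, and VGLL3 had 21 counts in GFP replicate 3 and at most 6 in the other libraries. None of the 7 tested genes of this list passed in either comparison with limma voom, against 0% and 8.36% of all tested genes. With all libraries 0 of them had an unadjusted limma voom p under 0.05, against 1698 of the 14286 tested genes. Within replicates 1 and 2, 3 had a limma voom adjusted p under 0.05, against 29.7% of all tested genes. YAP1 and WWTR1 were higher with POU5F1B there, and TEAD2 was lower (-0.69, limma voom adjusted p = 0.000574).

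Finally, genes with profiles like those of CCN1 and CCN2 were sought among 11105 other tested genes with a mean of at least 5 CPM, by the root mean square difference of log2 CPM over the 6 libraries after centring each gene on its mean. Nearest to CCN2 were CRB2 (difference 0.094), ILDR2 (0.130) and APCDD1 (0.144). APCDD1 had 1765, 1491 and 562 CPM with GFP and 503, 480 and 890 CPM with POU5F1B. It was chosen for likeness to CCN2, so that its crossing in replicate 3 follows from the choice. Nearest to CCN1 were the lncRNA ENSG00000223711 (0.0804), MARCHF4 (0.117) and TPST1 (0.118). MARCHF4 had 99.7, 102 and 40.9 CPM with GFP and 120, 113 and 53.7 CPM with POU5F1B. The member nearest to both was AMOTL2, ranked 92 for CCN1 (0.259) and 3022 for CCN2 (0.779), so that no other member lay near CCN2 in profile.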

How the data were processed

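RNA-seq read counts were deposited by the authors as 1 table of whole-number counts per library, without normalization. Per the study's methods and the labels, reads were mapped to hg19 with hisat2 and counted with featureCounts on genes and transposable elements, keeping uniquely mapped reads, from a Truseq Stranded mRNA library. The strand setting and annotation release are not given in the sources used here, which leaves overlapping genes uncertain. Symbols were found for 87.4% of the 63677 identifiers and for 122 of 123 list entries. Coordinates and merged exon lengths are from GENCODE v44 lifted to GRCh37, the same build as hg19; promoters are RefSeq's on GRCh38.p14.

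Low counts were removed by filterByExpr from edgeR 4.0.16 (14286 genes kept), and library sizes were scaled by TMM. The main test was voom with limma 3.58.1 (R 4.3.3), p-values adjusted by Benjamini and Hochberg's method across the whole tested set, and a 2-fold limit, as in the study's methods, so that the quasi-likelihood test of edgeR and DESeq2 1.42.0 were alternatives. Log2 CPM used a prior count of 2. Depth ranged from 10767947 to 12787637 counts, and 3 counts correspond to 0.235 to 0.279 CPM. These floors cover counting error only. Counts of replicate libraries were set against each other by chi-square, and none agreed within sampling noise (at least 4.21 per degree of freedom).

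The genes, lists and tests were chosen with earlier results of these data known. Named are the 10 members, POU5F1B, up to 4 genes of each list with the widest fold change among those whose groups do not overlap, and the 3 genes nearest to CCN1 and to CCN2 in profile. Marker genes and any others are named as such. Other settings were sample quality weights, DESeq2 size factors, total counts, no filter, a replicate block, replicates 1 and 2 only, and leaving out each library. Leaving out a library within replicates 1 and 2 was added after seeing the data.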

Additional observations from a re-analysis of the deposited data

How the results depend on the processing

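The number of members that passed stayed at 0 with edgeR, DESeq2, DESeq2 size factors, total counts, no filter and the replicate block. It became 1, CCN2, with sample quality weights (-1.83), without GFP replicate 3, and with replicates 1 and 2 only, and ranged from 0 to 1 over the fits that left out 1 library. Within replicates 1 and 2 the count of 1 was kept with edgeR, DESeq2, the replicate block and each left-out library (1 to 1). A lone library left in a group is assumed to vary like the others. Over the pathway lists the count of 0 became 3 with DESeq2, 4 with quality weights, 7 with replicates 1 and 2 only, and 0 to 5 when a library was left out. Over all genes it became 232 with DESeq2, 1077 with quality weights, 4 with no filter, 1 with the replicate block, 1194 with replicates 1 and 2 only, and 0 to 595 when a library was left out, highest without GFP replicate 3 and 5 without POU5F1B replicate 3. Some of these fits held fewer libraries, and the cause of the changes was not tested. Quality weights gave GFP replicate 3 a weight of 0.111.

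Of 140 member values under other settings 121 kept direction and side of the threshold, 16 changed sign and 3 (CCN2) gained the call. The changes of sign were in members whose intervals with all libraries spanned 0, as that of each member did. With quality weights they were CCN1 (-0.16), ANKRD1 (0.02), AMOTL2 (-0.25) and TEAD1 (0.07), and with replicates 1 and 2 only CCN1 (-0.07), ANKRD1 (0.12), AMOTL2 (-0.29) and TEAD1 (0.21). With replicates 1 and 2 only, the intervals of AMOTL2 (-0.46 to -0.12) and TEAD1 (0.01 to 0.41) did not span 0. These intervals are not adjusted over genes, and the limma voom adjusted p was 0.0146 for AMOTL2 and 0.108 for TEAD1. Over the fits that left out 1 library, CCN1 ranged from -0.38 to 0.41, ANKRD1 from -0.18 to 0.22, AMOTL2 from -0.39 to 0.49, LATS2 from -0.01 to 0.41, TEAD1 from -0.34 to 0.06 and CCN2 from -1.63 to -0.78. Within replicates 1 and 2 these ranges were -0.13 to 0.01 for CCN1, -0.04 to 0.10 for LATS2, -0.02 to 0.14 for TEAD4 and -2.03 to -1.93 for CCN2.

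The replicate numbers were not treated as pairs, since the deviations of same-numbered libraries correlated by 0.242, 0.0883 and 0.165 across genes for replicates 1, 2 and 3, and GFP replicate 2 and POU5F1B replicate 1 did not correlate best with their own number. With the replicate block CCN2 was -1.15, and it changed no member's call.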
